A study of Saccharomyces cerevisiae SK1 with 8 samples.

Results

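The comparison sets yeast whose only Pus1, a pseudouridine synthase, was a truncated isoform against yeast with the native PUS1 gene alone, and it used 4 of the 8 libraries of the study. The members were chosen by label: the 2 libraries of the deletion strain given the inducer, and the 2 libraries of wild type given the solvent. All cultures were diploid SK1 budding yeast (MATa/alpha), sampled 3 h after dilution into YEPD at 30 °C, with anhydrotetracycline (aTC) or DMSO added at dilution. Polyadenylated RNA was sequenced and counted per gene. The deletion groups (pus1del with aTC, pus1del with DMSO) carried pus1::KanMX in place of the native gene, and the WT groups (WT with aTC, WT with DMSO) kept it. Every culture, WT included, also carried his3::pTetO7.1-altPus1-3V5::HIS3, a V5-tagged truncated Pus1 (altPus1) under a tet-operator promoter. At ura3 every culture carried pRNR2-TetR-Tup1, a repressor fusion, and pTetO7.1-TetR. The other 2 groups, pus1del with DMSO and WT with aTC, were used for the shared estimate of spread and for values set beside the comparison.

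The strain and the agent both differ between the 2 sides. A gene can therefore differ because the native gene is gone, because the isoform is made, or because aTC was given, and no culture without the construct received aTC. Isoform and inducer cannot be told apart in this design. The labels call the libraries biological replicates of each group, and say nothing on whether the deletion is 1 clone.

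Pus1 converts uridine to pseudouridine, an isomer that pairs like uridine but binds its ribose through carbon. In budding yeast it modifies several positions of cytoplasmic tRNAs, U2 small nuclear RNA and sites in mRNAs, and cells without it grow in rich medium. Ribosome assembly, which the results below turn on, needs a large set of nucleolar factors whose genes are co-regulated and respond to growth conditions. Their promoters are known for a pair of short elements, PAC and RRPE, while genes of the general stress response carry the stress element STRE, bound by Msn2 and Msn4.

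PUS1 (YPL212C, chromosome 16, 149155 to 150789 on the minus strand, in the files' coordinates) had 42829 and 51740 reads in pus1del with aTC, against 11004 and 12139 reads in WT with DMSO. As CPM (reads of a gene per 1e6 reads of its library) it had 771 and 905 CPM in pus1del with aTC, against 221 and 216 CPM in WT with DMSO. The isoform-only cultures thus held 383.5% of the native read level (log2 fold change 1.94, SE 0.075, edgeR adjusted p = 1.49e-07). Without inducer the deletion held 2 and 4 reads, so the inducer raised PUS1 reads in that strain 15860 times (95% interval 7284 to 43210, counting error only). WT with aTC, which had both forms, had 1124 and 1078 CPM and the isoform-only cultures lay below it (log2 -0.39, edgeR adjusted p = 0.0152). The counts are of reads on the PUS1 gene, of which the isoform covers a part only, so they are not transcript numbers and say nothing of the protein.

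Genes at the loci of the construct also differed. HIS3, the marker beside the isoform, had 0 reads in 7 libraries and 1 read in WT with aTC replicate 2. Its neighbour MRM1, a mitochondrial rRNA methyltransferase gene, had 59 and 61.8 CPM in pus1del with aTC, against 42.7 and 42.4 CPM in WT with DMSO (log2 fold change 0.51, SE 0.057, edgeR adjusted p = 9.34e-04). The helicase gene DED1, on the other side, differed by a log2 of 0.29 (edgeR adjusted p = 0.0161), and both were higher by 0.47 and 0.45 in WT with aTC than in WT with DMSO. YOR203W, which lies between HIS3 and DED1 and overlaps both, was called from 0.378 and 0.175 CPM in pus1del with aTC, against 0 and 0.0356 CPM in WT with DMSO, values too near 0 for a fold, and was named after its values were seen. URA3, the marker at the other locus, had 6.25 and 6.82 CPM in pus1del with aTC, against 4.66 and 5.25 CPM in WT with DMSO (log2 fold change 0.40, SE 0.10, edgeR adjusted p = 0.0257). TUP1, whose reads include the TetR-Tup1 fusion, missed the threshold (log2 0.17, adjusted p = 0.0707), as did RNR2 (log2 -0.09, adjusted p = 0.237). NIP7 and LEA1, which flank PUS1, were not called (log2 0.14 and -0.09). The DED1 call ended without pus1del with aTC replicate 1 or WT with DMSO replicate 2, and the URA3 call under 6 of 16 other settings, among them DESeq2.

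Across the genome, many genes differed by a small amount between the isoform-only and the native-only cultures. Of 5932 genes tested, 1222 (20.6%) were called by edgeR's quasi-likelihood test at a Benjamini-Hochberg adjusted p under 0.05. Of these, 613 (10.3%) were higher and 609 (10.3%) lower in pus1del with aTC than in WT with DMSO. These shares of all tested genes are the background for the counts of list members below. The differences were small: the median size among called genes was a log2 of 0.31, 99 genes passed 1.5-fold (42 higher, 57 lower) and 11 passed 2-fold. For 4725 genes (79.7%) the whole 95% interval of the log2 fold change lay within 0.5 of 0 on either side, so a larger difference was not seen there at this precision. The median half-width of that interval was 0.159.

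The count of calls rested on single libraries more than the fold changes did. It was 123 without pus1del with aTC replicate 1, 339 without WT with DMSO replicate 1, 497 without WT with DMSO replicate 2, and 691 and 667 without pus1del with DMSO replicate 1 and 2. DESeq2 called 1268 genes, and 502 of these were higher and 766 lower, so 39.6% were higher by DESeq2 and 50.2% by edgeR. Libraries did not overlap between the 2 groups for all 1222 called genes, and for 3741 of all genes tested (63.1%).

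**Figure D1:**
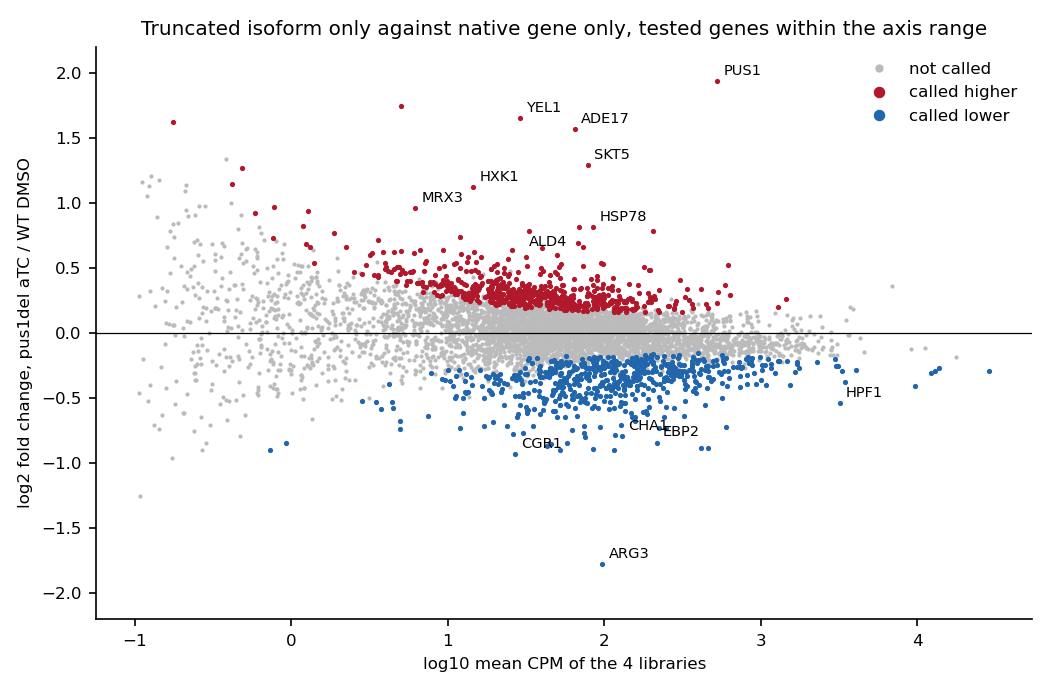
Each point is a tested gene, with the log10 of its mean CPM over the 4 libraries on the x axis and the log2 fold change of pus1del with aTC over WT with DMSO on the y axis. Called genes are red (higher, 613) or blue (lower, 609), and 1 gene, YOR203W, lies outside the axis range. PUS1, YEL1, ADE17, SKT5 and ARG3 lie far from the rest, while most called genes lie within 1 log2 unit of 0.

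Total counts ran from 51331492 to 61960514 per library, and the upper limit for a gene with 0 reads, 3 reads, came to 0.0484 to 0.0584 CPM for counting error only. On a principal component analysis without PUS1, the first component (38.65% of variance) held pus1del with aTC at -12.5 and -8.59, pus1del with DMSO at -0.355 and -1.12, and WT with DMSO at 7.19 and 6.62. The replicates of WT with aTC lay apart on it, at 8.55 and 0.202. Log2 CPM of replicates correlated across genes at 0.997 to 0.999. MFA1 and STE3, genes of single mating types that a MATa/alpha diploid does not express, were near the floor. The pheromone gene MFA1 stayed at 0.229 to 0.44 CPM, and STE3, a pheromone receptor gene, at 0.0533 to 0.497 CPM. Both were named after their values were seen and do not speak for all such genes. A list of 25 haploid-specific genes came to 320.6 to 375.6 CPM per library in sum.

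Genes of ribosome assembly, the making of ribosomes in the nucleolus, were lower in the isoform-only cultures. Of 59 factors of large subunit assembly, 44 were called lower by edgeR and 46 by DESeq2, with a median log2 of -0.36, against 0.0065 over all tested genes. Of 69 factors of small subunit assembly, 43 were called lower by edgeR and 50 by DESeq2, with a median of -0.31. Together 125 of the 128 genes had a negative log2 fold change. These lists were written with earlier results of these data known. Per library, the median of the large subunit list, as log2 CPM minus each gene's mean over all 8 libraries, was -0.255 and -0.198 in pus1del with aTC, -0.007 and -0.023 in pus1del with DMSO, 0.268 and -0.034 in WT with aTC, and 0.199 and 0.086 in WT with DMSO. The isoform-only libraries were the lowest of the 8, and the deletion without inducer lay between them and WT with DMSO.

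CGR1, RBP95, RRP14, RRP15, EFG1, NOP53 and TMA23 are in neither list and are named as the called genes of largest change. Promoters of the 5 assembly genes that the values below turn on are shown because the same pair of elements recurs in them. They are the 250 bases before the coding start, from the RefSeq R64 genome of strain S288C, not SK1, read 5′ to 3′ on the gene's strand. Capitals mark PAC (GATGAG) and RRPE (AAATTT), or their reverse complements, and PAC matches that overlap run on into each other.
CGR1 (chr7:439813-440062, plus strand): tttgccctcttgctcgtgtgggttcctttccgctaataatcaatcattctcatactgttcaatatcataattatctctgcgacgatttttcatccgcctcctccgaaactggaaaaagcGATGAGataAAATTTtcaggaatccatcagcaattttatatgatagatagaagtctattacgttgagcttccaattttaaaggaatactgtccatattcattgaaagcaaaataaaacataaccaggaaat
RBP95 (chr3:143384-143633, plus strand): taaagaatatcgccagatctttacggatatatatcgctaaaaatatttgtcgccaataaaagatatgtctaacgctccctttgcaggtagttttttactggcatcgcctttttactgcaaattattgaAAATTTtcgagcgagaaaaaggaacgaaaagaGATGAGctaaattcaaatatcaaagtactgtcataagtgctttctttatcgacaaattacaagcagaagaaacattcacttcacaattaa
NOP15 (chr14:418489-418738, minus strand): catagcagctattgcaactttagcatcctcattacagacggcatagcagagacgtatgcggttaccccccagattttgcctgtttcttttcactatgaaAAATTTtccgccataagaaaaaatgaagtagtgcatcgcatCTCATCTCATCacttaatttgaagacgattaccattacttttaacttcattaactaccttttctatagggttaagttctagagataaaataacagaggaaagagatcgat
PXR1 (chr7:1051726-1051975, minus strand): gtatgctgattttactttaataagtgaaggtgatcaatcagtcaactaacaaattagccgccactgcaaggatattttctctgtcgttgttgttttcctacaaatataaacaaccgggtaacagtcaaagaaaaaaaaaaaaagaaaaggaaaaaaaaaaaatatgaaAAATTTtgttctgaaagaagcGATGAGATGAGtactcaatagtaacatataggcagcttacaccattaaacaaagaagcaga
EBP2 (chr11:125509-125758, plus strand): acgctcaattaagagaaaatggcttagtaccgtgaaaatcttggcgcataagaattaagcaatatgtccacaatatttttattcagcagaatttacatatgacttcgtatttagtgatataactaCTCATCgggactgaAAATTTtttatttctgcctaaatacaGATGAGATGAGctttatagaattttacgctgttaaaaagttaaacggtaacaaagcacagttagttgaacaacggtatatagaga
CGR1 and RBP95 hold 1 PAC match each, NOP15 and PXR1 hold 2 overlapping matches and EBP2 holds 3, each beside 1 RRPE match.

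CGR1, needed for pre-rRNA processing of the large subunit, had 17 and 20 CPM in pus1del with aTC, against 32 and 38.5 CPM in WT with DMSO (log2 fold change -0.93, SE 0.18, edgeR adjusted p = 0.00844). RBP95, an rRNA-binding protein of large subunit precursors, had 32.9 and 39.6 CPM in pus1del with aTC, against 66.7 and 68.5 CPM in WT with DMSO (log2 fold change -0.90, SE 0.13, edgeR adjusted p = 0.00355). Both genes were below every WT with DMSO library in both isoform-only libraries, as was every gene called lower. NOP15, which binds large subunit precursors, had 76.5 and 85.6 CPM in pus1del with aTC, against 145 and 157 CPM in WT with DMSO (log2 fold change -0.90, SE 0.15, edgeR adjusted p = 0.0063). EBP2, required for the same maturation, had 148 and 163 CPM in pus1del with aTC, against 267 and 289 CPM in WT with DMSO (log2 fold change -0.84, SE 0.16, edgeR adjusted p = 0.0087). PXR1, whose product activates the helicase Prp43 in rRNA processing, had 54.1 and 64 CPM in pus1del with aTC, against 112 and 107 CPM in WT with DMSO (log2 fold change -0.89, SE 0.11, edgeR adjusted p = 0.00205). The 5 genes were picked among genes whose libraries did not overlap between the 2 groups, which held for all 1222 called genes. Their separation therefore adds no support.

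The deletion without inducer lay between the groups for each of these genes, and the replicates of WT with aTC lay apart. EBP2 had 237 and 231 CPM in pus1del with DMSO and 345 and 213 CPM in WT with aTC, NOP15 had 124 and 119 CPM in pus1del with DMSO and 174 and 112 CPM in WT with aTC, and PXR1 had 89.1 and 91.8 CPM in pus1del with DMSO and 120.2 and 91 CPM in WT with aTC. For PXR1 the loss of the gene without isoform gave a log2 of -0.27 (edgeR adjusted p = 0.268), and the isoform-only cultures differed from the deletion without inducer by -0.62 (adjusted p = 0.0446). WT with aTC and WT with DMSO differed by -0.05, in a comparison that called 22 of 5932 genes (0.371%), 49 by DESeq2, and 14 without either library of pus1del with DMSO or of WT with DMSO. The list medians followed the same order: for the large subunit -0.36 in pus1del with aTC and -0.16 in pus1del with DMSO, each against WT with DMSO, and -0.02 in WT with aTC against WT with DMSO. The small subunit medians were -0.31, -0.14 and -0.01 in that order. These comparisons share the WT with DMSO libraries. CGR1, RBP95, NOP15 and EBP2, unlike PXR1, were not called between the 2 deletion groups (edgeR adjusted p = 0.0763 to 0.0952). That comparison called 2 of 59 large subunit and 0 of 69 small subunit assembly genes lower, with list medians of -0.21 and -0.17. It called 30 of 5932 genes in all (0.506%). The test of whether the aTC response differed between the strains called 0 of these genes: by edgeR it called PUS1 alone of 5932 (0.0169%), with 429 genes at an unadjusted p under 0.05, 28 of the 128 assembly genes among them. Of the 128, 111 had a negative interaction, a lower aTC response in the deletion than in WT. The median interaction was -0.18 for the large and -0.16 for the small subunit list, against 0.0034 over all tested genes. The replicates of WT with aTC lay apart on these lists. Genes regulated together are not independent, so the count of signs is no test.

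Other assembly genes differed by similar amounts. RRP15, of large subunit precursors, differed by -0.87, RRP14, needed for both subunits, by -0.85, and LOC1, a large subunit factor, by -0.80. NOP53, which brings the exosome's helicase to precursors, differed by -0.78. EFG1, BUD22 and NOP14, of small subunit assembly, differed by -0.85, -0.72 and -0.67, and the nucleolar protein gene TMA23 by -0.77. All were called by edgeR, at adjusted p up to 0.00996, and RRP14 and RRP15 each overlap another listed gene. Without pus1del with aTC replicate 1, 2 large subunit and 1 small subunit genes were called, and without WT with DMSO replicate 1, 17 and 13. CGR1, NOP15, EBP2, LOC1, NOP53, BUD22, NOP14, RRP14, RRP15, EFG1 and TMA23 lost the call without pus1del with aTC replicate 1. The list medians over all settings stayed at -0.42 to -0.33 for the large subunit and -0.37 to -0.27 for the small subunit.

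**Figure D2:**
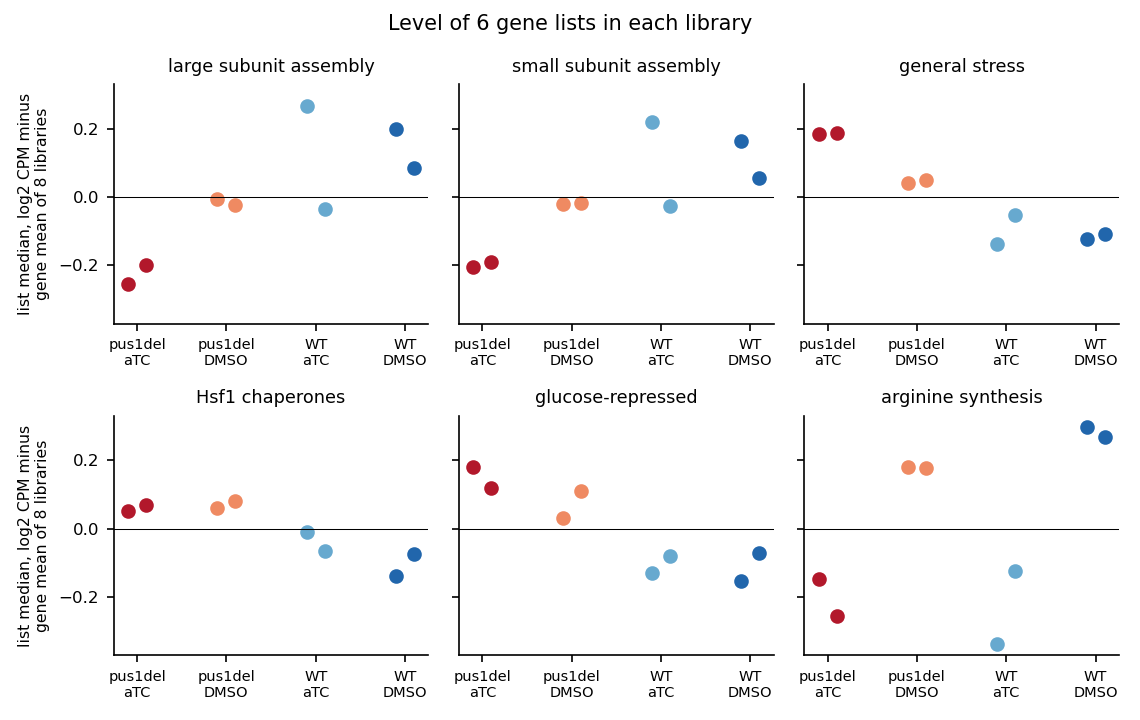
Each panel shows 1 gene list, and each point a library, as the list's median of log2 CPM minus each gene's mean over the 8 libraries (y axis), by group (x axis). Both ribosome assembly lists are lowest in pus1del with aTC, general stress genes are highest there, and arginine synthesis genes are low in both groups given aTC.

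PAC and RRPE, chosen after the calls were seen, were counted in all promoters. PAC (GATGAG on either strand in the 250 bases before the coding start) was in 16.4% of 5591 tested genes with a promoter, in 34.0% of genes called lower, in 10.8% of genes called higher and in 88.3% of the 128 assembly genes. RRPE (AAATTT, a palindrome) was in 31.0% of all, 49.1% of genes called lower, 26.1% of genes called higher and 95.3% of assembly genes. Both elements were in 7.94% of all tested promoters, 25.8% of those of genes called lower and 84.4% of assembly genes. Leaving the assembly lists out, 76 of 510 genes called lower held both (14.9%), against 336 of 5463 tested genes outside those lists (6.15%). Both sets still hold assembly genes that are in neither list, such as CGR1 and RBP95. The split therefore cannot show whether the pair goes with lower levels beyond ribosome assembly. The median log2 fold change of those 336 genes was -0.078, and that of the 108 assembly genes with both was -0.336. A match is a description of these letters, not of a bound site, and 341 tested genes had no promoter here.

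**Figure D3:**
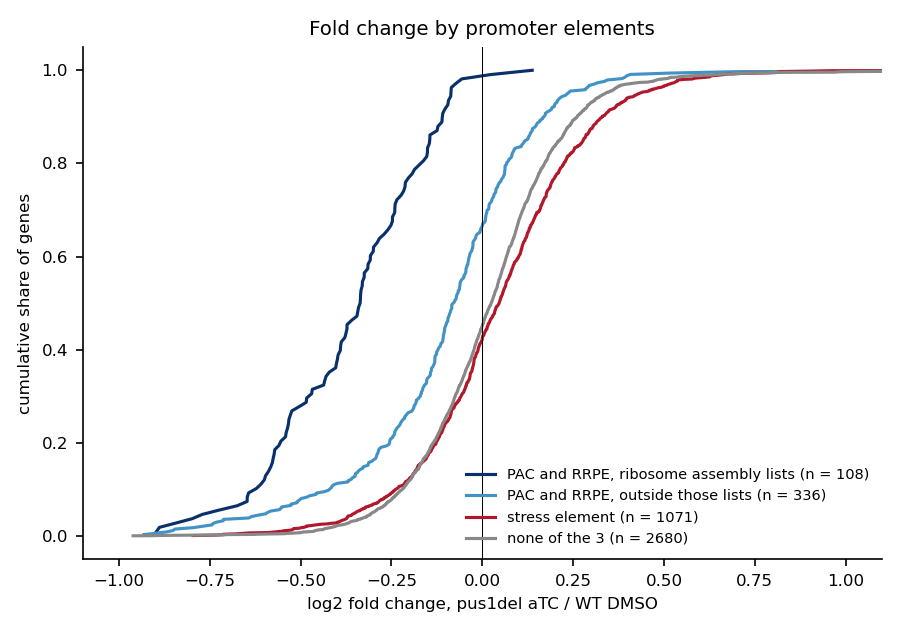
Cumulative share of genes (y axis) against the log2 fold change of pus1del with aTC over WT with DMSO (x axis) for assembly genes with PAC and RRPE (n = 108), other genes with both (n = 336), genes with the stress element (n = 1071) and genes with none of the 3 (n = 2680). The first set lies furthest to the left, with a median of -0.336, the second at -0.078, the stress element set at 0.047 and the set with none at 0.025.

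Machinery linked to ribosome making was lower too, by less, where 10.3% of all tested genes were called lower. Of 10 RNA polymerase I genes, which transcribe rRNA, 5 were called lower (median -0.23), with RPA34 at -0.43 and RPA43 at -0.40. Of 6 genes of the H/ACA complex, which places pseudouridine in rRNA with guide RNAs, 3 were called lower: NHP2 (-0.51), NAF1 (-0.29) and CBF5, the catalytic subunit (-0.23). RPA34 lost its call without pus1del with aTC replicate 1 or WT with DMSO replicate 1, RPA43 and NHP2 without pus1del with aTC replicate 1, and NAF1 and CBF5 in 5 and 4 of the 8 fits that left out a library. Few ribosomal protein genes were called, and most had small negative values. Of 56 small subunit genes edgeR called 0, with 8 at an unadjusted p under 0.05, and DESeq2 called 1 lower; 54 were negative (median -0.09). Of 81 large subunit genes edgeR called 4 higher and 9 lower, a share of lower calls near the 10.3% of all tested genes, and DESeq2 called 4 higher and 12 lower; 71 were negative (median -0.10). In pus1del with DMSO against WT with DMSO, the list medians were -0.15 for RNA polymerase I and -0.07 for the H/ACA complex. They were -0.07 for small and -0.09 for large subunit ribosomal protein genes. Near-identical paralogue pairs are uncertain in uniquely aligned reads.

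The other stand-alone pseudouridine synthases were lower or not called. Of 8 genes tested, 3 were called lower, against 10.3% of all tested genes, and the other 5 were not called. PUS4, which modifies the T loop of tRNAs, had 79.5 and 86 CPM in pus1del with aTC, against 101 and 96.4 CPM in WT with DMSO (log2 fold change -0.26, SE 0.07, edgeR adjusted p = 0.0276). PUS7, which acts on tRNA and mRNA, differed by -0.22, and PUS9, a mitochondrial tRNA enzyme, by -0.22 (edgeR adjusted p = 0.0418 and 0.0346). The closest paralogue, PUS2, a mitochondrial tRNA enzyme, had 22.9 and 20.2 CPM in pus1del with aTC, against 22.4 and 22.6 CPM in WT with DMSO (log2 -0.06, adjusted p = 0.629). DEG1, RIB2, PUS5 and PUS6 were not called (log2 -0.12, -0.11, 0.04 and 0.16). The calls of PUS4, PUS7 and PUS9 ended in 5, 6 and 6 of the 8 fits that left out a library.

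Stress genes were higher in the isoform-only cultures. Of 40 general stress genes, 23 were called higher by edgeR and 19 by DESeq2, with a median log2 of 0.31. The list's per-library medians were 0.185 and 0.189 in pus1del with aTC, 0.042 and 0.049 in pus1del with DMSO, -0.138 and -0.052 in WT with aTC, and -0.122 and -0.107 in WT with DMSO. PNC1, the nicotinamidase, had 88.1 and 92 CPM in pus1del with aTC, against 51.4 and 62.2 CPM in WT with DMSO (log2 fold change 0.66, SE 0.11, edgeR adjusted p = 0.00544). HSP104, the cytosolic disaggregase, had 197 and 226 CPM in pus1del with aTC, against 147 and 149.9 CPM in WT with DMSO (log2 fold change 0.51, SE 0.076, edgeR adjusted p = 0.00449). Reserve carbohydrate genes were among them, with the glycogen synthase gene GSY1 at 0.64 and the trehalose gene TPS1 at 0.53. The strongly inducible members HSP12 and HSP26 were not called (log2 0.23 and 0.39), and HSP12 stayed at 0.562 to 1.87 CPM in all libraries.

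The count of 23 was 6 without pus1del with aTC replicate 1 or WT with DMSO replicate 1, 14 without pus1del with aTC replicate 2 or pus1del with DMSO replicate 2, and 15 without pus1del with DMSO replicate 1 or WT with DMSO replicate 2. The list median stayed between 0.272 and 0.324 over all settings.

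Of 25 chaperone genes controlled by the heat shock factor Hsf1, 10 were called higher by edgeR and 11 by DESeq2 (median 0.17). The list's per-library medians were as high in the deletion without inducer: 0.059 and 0.08 in pus1del with DMSO, 0.052 and 0.068 in pus1del with aTC. They were -0.009 and -0.067 in WT with aTC, and -0.138 and -0.074 in WT with DMSO. Its median was 0.16 in pus1del with DMSO against WT with DMSO, and 0.01 between the deletion groups. HSP78, the mitochondrial disaggregase, had 98.2 and 118 CPM in pus1del with aTC, against 56.2 and 66.5 CPM in WT with DMSO (log2 fold change 0.82, SE 0.091, edgeR adjusted p = 9.34e-04). HSP82, an Hsp90, had 235 and 284 CPM in pus1del with aTC, against 128 and 173 CPM in WT with DMSO (log2 fold change 0.79, SE 0.13, edgeR adjusted p = 0.00545), and SSA1, a cytosolic Hsp70, had 742 and 710.1 CPM in pus1del with aTC, against 491 and 517 CPM in WT with DMSO (log2 fold change 0.53, SE 0.056, edgeR adjusted p = 6.60e-04). In each of the 3 genes both isoform-only libraries were above both native-only libraries, as in every gene called higher. CUR1, a sorting factor for misfolded proteins, differed by 0.78, a call lost without either pus1del with aTC library or WT with DMSO replicate 1. The inducible Hsp70 gene SSA4 was not called (log2 -0.14). The count of 10 was 4 without pus1del with aTC replicate 1 or WT with DMSO replicate 1, and 5 without pus1del with aTC replicate 2. Near-identical copies (SSA1 and SSA2, HSP82 and HSC82) are uncertain in uniquely aligned reads.

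Promoters of HSP78 and PNC1 are shown because they hold the stress elements named above. They come from R64 as before, and capitals mark STRE (AGGGG on either strand) and, in HSP78, a heat shock element (GAANNTTC).
HSP78 (chr4:974244-974493, minus strand): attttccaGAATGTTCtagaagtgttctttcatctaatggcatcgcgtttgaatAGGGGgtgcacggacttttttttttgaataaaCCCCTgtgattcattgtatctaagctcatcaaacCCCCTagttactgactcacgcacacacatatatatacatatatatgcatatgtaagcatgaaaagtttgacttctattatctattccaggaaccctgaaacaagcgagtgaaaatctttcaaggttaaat
PNC1 (chr7:427948-428197, minus strand): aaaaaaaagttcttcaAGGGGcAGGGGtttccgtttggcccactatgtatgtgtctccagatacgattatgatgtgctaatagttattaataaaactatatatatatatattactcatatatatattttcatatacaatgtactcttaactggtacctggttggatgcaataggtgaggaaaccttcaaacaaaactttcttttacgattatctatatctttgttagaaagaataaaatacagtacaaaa
STRE was in 19.2% of all tested promoters, 28.6% of those of genes called higher, 15.2% of genes called lower and 67.5% of the general stress list. The heat shock element was in 10.2% of all promoters, 9.63% of genes called higher and 48.0% of the Hsf1 list, so its share among higher genes was near that of all genes.

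Genes repressed by glucose were partly higher. Of 24 tested, edgeR called 9 higher and 1 lower (median 0.27), and DESeq2 called 6 higher and 0 lower. With only the 4 libraries compared, edgeR called 6 higher. The list median was 0.21 in pus1del with DMSO against WT with DMSO, and 0.09 between the deletion groups. HXK1, the hexokinase made when glucose is scarce, had 18.8 and 21.1 CPM in pus1del with aTC, against 7.09 and 11.2 CPM in WT with DMSO (log2 fold change 1.12, SE 0.17, edgeR adjusted p = 0.00449), against 13.6 and 13.3 CPM in pus1del with DMSO and 8.51 and 10.6 CPM in WT with aTC. ALD4, the mitochondrial aldehyde dehydrogenase, had 91.8 and 84.4 CPM in pus1del with aTC, against 48.5 and 51.9 CPM in WT with DMSO (log2 fold change 0.81, SE 0.065, edgeR adjusted p = 8.00e-05). CAT2, a carnitine acetyltransferase gene, and ADR1, an activator of the class, differed by 0.60 and 0.54. SIP4, another activator, was lower (-0.28), a call that ended without any 1 library of 3 groups, WT with aTC apart, and by DESeq2. Glycolysis and fermentation genes went the other way in 8 of 23 cases, with a median of -0.13: ENO1 differed by -0.46, TDH3 by -0.29 and the alcohol dehydrogenase gene ADH1 by -0.31. In pus1del with DMSO against WT with DMSO the median of that list was -0.13 too. With only the 4 libraries compared, TDH3 and ADH1 lost the call. The count of 9 was 3 without pus1del with aTC replicate 1 and 5 without either WT with DMSO library. ADR1 and ENO1 lost the call without pus1del with aTC replicate 1, TDH3 without either library of pus1del with DMSO or WT with DMSO, and ADH1 without either library of WT with DMSO.

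**Figure D4:**
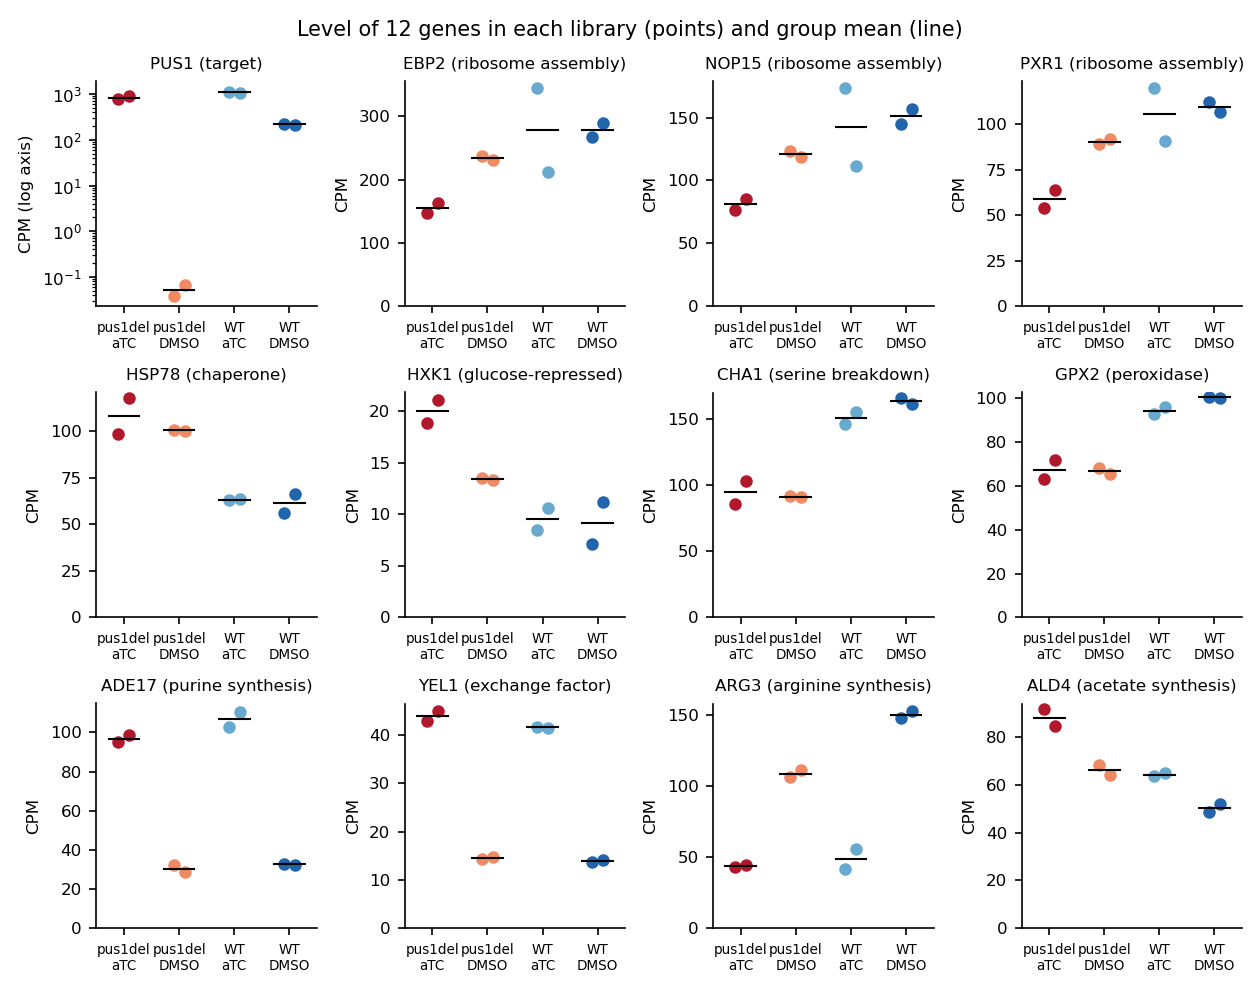
CPM (y axis, log scale for PUS1 only) of 12 genes in each library (points) by group (x axis), with the group mean as a line. EBP2, NOP15 and PXR1 are lowest in pus1del with aTC, HSP78, CHA1 and GPX2 have similar levels in both pus1del groups, and ADE17, YEL1 and ARG3 have similar levels in both groups given aTC.

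Whether the isoform stands in for the native gene was read from genes that differed on loss of PUS1 without inducer. Besides PUS1, 12 genes were called between pus1del with DMSO and WT with DMSO, which with PUS1 made 13 of 5932 (0.219%). All 12 were called in the isoform-only cultures against WT with DMSO with the same sign, and these 2 comparisons share the WT with DMSO libraries. Against WT with aTC, which adds the native gene to the isoform and holds the inducer equal, all 12 were again called with the same sign. That comparison called 808 of 5932 genes in all (13.6%), 326 higher (5.5%) and 482 lower (8.13%). Between the deletion with and without aTC and its isoform, 1 of the 12 was called, ALD4. This comparison reuses the pus1del with DMSO libraries, on which the 12 genes were chosen. That comparison called 30 genes in all (0.506%), and below, a difference given for the isoform holds that of aTC too.

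The 12 genes were chosen by their calls in a comparison that shares the WT with DMSO libraries. That they keep calls in other settings is therefore no support for them. At least 11 of the 12 stayed called against WT with DMSO whichever library was left out, and all 12 by DESeq2. Against WT with aTC, 12 were called by DESeq2, 8 without WT with aTC replicate 1 and 2 without pus1del with aTC replicate 1, a fit that called 3 genes in all. The 808 calls were 63 without WT with aTC replicate 1, 1408 without its replicate 2, and 332 and 220 without pus1del with DMSO replicate 1 and 2. The 13 genes called on loss were 2 and 1 without pus1del with DMSO replicate 1 and 2, 4 without WT with DMSO replicate 1, 27 without its replicate 2, and 29 and 28 without pus1del with aTC replicate 1 and 2. They were 106 and 94 without WT with aTC replicate 1 and 2, whose replicates lay apart and enter only the estimate of spread, 109 without both, and 113 by DESeq2. The 30 calls between the deletion groups were likewise 547 and 549 without WT with aTC replicate 1 and 2, 584 without both and 374 by DESeq2, and 10, 9 and 13 without pus1del with DMSO replicate 1, replicate 2 or pus1del with aTC replicate 1. Calls missing among these 2 comparisons are therefore no sign of equal levels.

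CHA1, the catabolic serine and threonine deaminase, had 85.8 and 103 CPM in pus1del with aTC, 91.5 and 90.6 CPM in pus1del with DMSO, 146 and 155 CPM in WT with aTC and 166 and 161 CPM in WT with DMSO. Both deletion groups were low and both WT groups high. The log2 difference of pus1del with aTC from pus1del with DMSO was 0.05 (95% interval -0.12 to 0.22), while that of pus1del with DMSO from WT with DMSO was -0.84. GPX2, a glutathione peroxidase gene, had 63.1 and 71.8 CPM in pus1del with aTC, 68.3 and 65.3 CPM in pus1del with DMSO, 92.9 and 96 CPM in WT with aTC and 101 and 100.4 CPM in WT with DMSO. Its difference with the isoform was 0.01 (95% interval -0.13 to 0.16), against -0.59 for the loss. HPF1, a cell wall mannoprotein gene, showed the same order, with 0.02 (95% interval -0.13 to 0.17) for the isoform and -0.56 for the loss.

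The zinc transporter gene ZRT1 had 38 and 37.2 CPM in pus1del with aTC, 38.7 and 39.2 CPM in pus1del with DMSO, 44.5 and 44.8 CPM in WT with aTC and 58.9 and 55 CPM in WT with DMSO. Loss gave -0.55 and the isoform in the deletion -0.05 (95% interval -0.19 to 0.08), and WT with aTC was also lower than WT with DMSO (-0.35, edgeR adjusted p = 0.0334). Among the genes that were higher, the chaperone genes stayed up: HSP78 had 100.5 and 100.3 CPM in pus1del with DMSO and 63 and 63.4 CPM in WT with aTC, with 0.11 (95% interval -0.09 to 0.30) for the isoform in the deletion against 0.71 for the loss. For SSA1 the isoform gave 0.08 (95% interval -0.04 to 0.20) against 0.45, and for HSP82 0.01 (95% interval -0.26 to 0.29) against 0.77. YPS6, a yapsin protease gene, had 16.5 and 13.3 CPM in pus1del with aTC, 14.3 and 14.2 CPM in pus1del with DMSO, 9.13 and 10.1 CPM in WT with aTC and 8.54 and 9.3 CPM in WT with DMSO. Both deletion groups were above both WT groups.

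TPO4, a polyamine exporter gene, and MCR1, a mitochondrial cytochrome b5 reductase gene, differed by 0.17 (95% interval 0.01 to 0.32) and 0.10 (95% interval -0.04 to 0.23) with the isoform, against 0.44 and 0.39 for the loss. In 10 of the 12 genes the isoform-related difference in the deletion was at most 0.167 in size. ALD4 and YOR338W were the other two. ALD4 had 91.8 and 84.4 CPM in pus1del with aTC, 68.2 and 63.9 CPM in pus1del with DMSO, 63.6 and 64.8 CPM in WT with aTC and 48.5 and 51.9 CPM in WT with DMSO, and with the isoform it rose further (0.42 (95% interval 0.27 to 0.56), edgeR adjusted p = 0.0175). YOR338W, of unknown function, had 9.59 and 9.42 CPM in pus1del with aTC, 14 and 13.2 CPM in pus1del with DMSO, 7.94 and 6.23 CPM in WT with aTC and 7.19 and 6.74 CPM in WT with DMSO. It was highest in the deletion without inducer, and its level with the isoform lay nearer to WT (-0.51 (95% interval -0.75 to -0.27), edgeR adjusted p = 0.0638), though still above WT with DMSO (0.45, adjusted p = 0.0224). The last call ended without any 1 of the 4 libraries compared. MCR1 and YOR338W were named after their values were seen. Calls do not cover genes with smaller changes on loss, of which 980 had an unadjusted p under 0.05.

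A comparison with no library in common, pus1del with DMSO against WT with aTC, gave a set of genes that was not chosen on the 4 libraries, though it shares the estimate of spread. It called 102 genes of 5932 (1.72%), 50 higher (0.843%) and 52 lower (0.877%). Apart from PUS1, 101 genes remain, of which 64 had the same sign in pus1del with aTC against WT with DMSO and 37 the opposite sign. Loss of the native gene enters both comparisons in 1 direction, and aTC with the isoform enters them in opposite directions. Of the 101, 49 were called in the main comparison, 25 with the same sign and 24 with the opposite sign, against 20.6% called of all tested genes. The other 52 were not called, and for 49 of them the 95% interval in the main comparison lay within 0.5 of 0.

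Genes with the same sign in both were CHA1 (-0.72 in pus1del with DMSO against WT with aTC and -0.79 in pus1del with aTC against WT with DMSO), GPX2 (-0.50 and -0.58), ABP140, a tRNA methyltransferase gene (-0.44 and -0.43), HSP78 (0.67 and 0.82) and YPS6 (0.57 and 0.74). The carbonic anhydrase gene NCE103 was also among them (0.75 and 0.52), with 102 and 69.6 CPM in pus1del with aTC, 109 and 101 CPM in pus1del with DMSO, 56.7 and 68.4 CPM in WT with aTC and 57.5 and 62.1 CPM in WT with DMSO. Its isoform-only libraries lay far apart, and its call ended under 6 settings, DESeq2 among them. FIG1, a pheromone-induced gene, was among those not called, with 1.09 and 0.27. The count of 102 was 16 and 17 without pus1del with DMSO replicate 1 and 2, 55 without WT with aTC replicate 1 and 411 without WT with aTC replicate 2, and DESeq2 called 264.

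**Figure D5:**
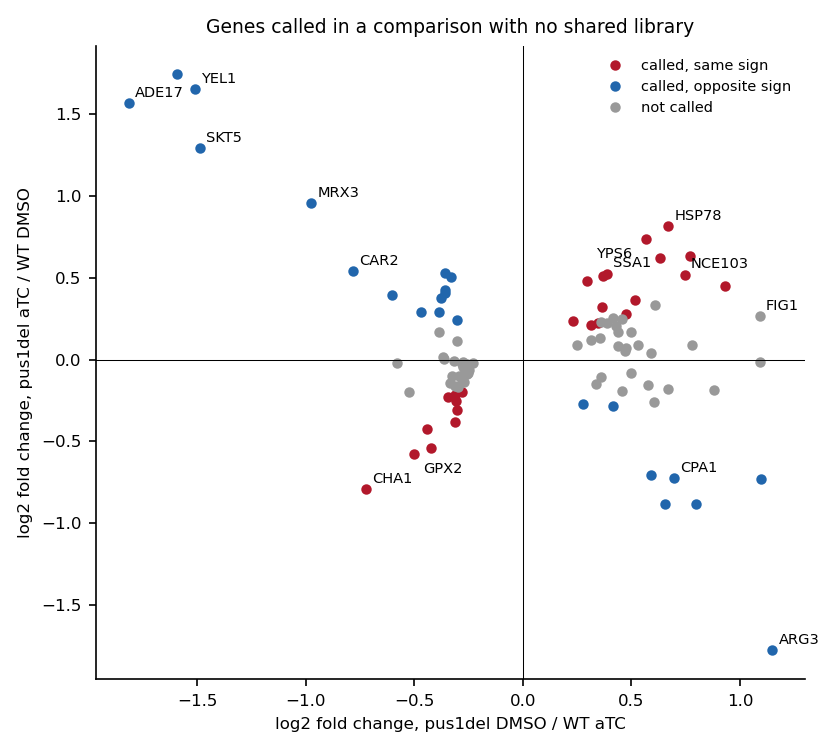
Each point is 1 of 100 genes called between pus1del with DMSO and WT with aTC (x axis, log2 fold change), placed by its log2 fold change in pus1del with aTC over WT with DMSO (y axis), PUS1 and YOR203W left out. Red points were called with the same sign (CHA1, GPX2, HSP78), blue with the opposite sign (ADE17, YEL1, ARG3), and grey points were not called.

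Genes of opposite sign were led by a set that differed with aTC in both strains, by far more than between the strains at equal aTC. ADE17, of purine synthesis, had 95.1 and 98.5 CPM in pus1del with aTC, 32.1 and 28.7 CPM in pus1del with DMSO, 103 and 111 CPM in WT with aTC and 32.9 and 32.4 CPM in WT with DMSO. YEL1, an exchange factor gene for the GTPase Arf3, had 43 and 44.9 CPM in pus1del with aTC, 14.4 and 14.8 CPM in pus1del with DMSO, 41.7 and 41.4 CPM in WT with aTC and 13.8 and 14.2 CPM in WT with DMSO, and its neighbour SKT5, an activator of chitin synthase, had 108 and 116 CPM in pus1del with aTC, against 46 and 45.4 CPM in WT with DMSO. The groups given aTC did not overlap those given DMSO in any of these. The log2 fold changes in the main comparison were 1.57, 1.65 and 1.29 (SE 0.069, 0.066 and 0.062), and edgeR adjusted p was at most 5.13e-07. Against WT with aTC the same isoform-only libraries differed by -0.14, 0.08 and -0.19. MRX3, a mitochondrial protein gene, differed by 0.96 from WT with DMSO and by 0.10 from WT with aTC, and YJL027C, which lies beside RNR2, by 1.74 and 0.05. SKT5 and MRX3 each overlap another listed gene, as do ARG5,6, CAR2, HXK1, SSA1, MRM1 and PUS2. The set was known from earlier results of these data.

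Arginine synthesis was lower in both groups given aTC. Of 10 genes, 6 were called lower in pus1del with aTC than in WT with DMSO by edgeR and 7 by DESeq2 (median -0.50). ARG3, ARG5,6, ARG1, CPA1 and ARG8 belong to the set above, known earlier to differ with aTC in both strains. ARG3, ornithine carbamoyltransferase, had 42.8 and 44.7 CPM in pus1del with aTC, 106 and 111 CPM in pus1del with DMSO, 42 and 56 CPM in WT with aTC and 148 and 152 CPM in WT with DMSO. Against WT with DMSO it fell by 1.78 on the log2 scale (SE 0.10, edgeR adjusted p = 3.73e-06), and against WT with aTC its difference was -0.16. In pus1del with DMSO, ARG3 differed from WT with DMSO by -0.47 (95% interval -0.69 to -0.25, edgeR adjusted p = 0.0897). ARG5,6 differed by -0.89 from WT with DMSO and 0.07 from WT with aTC, ARG1 by -0.88 and -0.01, CPA1 by -0.72 and 0.03, and ARG8 by -0.70 and 0.03. Genes of arginine breakdown and uptake were higher in 5 of 12 cases and lower in 1. CAR2, ornithine transaminase, had 117 and 109 CPM in pus1del with aTC, against 70.7 and 84.5 CPM in WT with DMSO (log2 fold change 0.54, SE 0.078, edgeR adjusted p = 0.00388), and the permease gene CAN1 differed by 0.40. MCM1, a shared regulator of arginine genes, was the lower one (-0.48), and its call ended without pus1del with aTC replicate 1 or WT with DMSO replicate 1. Leaving out genes that overlap others moved the synthesis median to -0.29.

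Of all tested genes, 10.3% were called lower and 10.3% higher. Amino acid synthesis genes under Gcn4 outside the arginine path were called lower in 12 of 42 cases (median -0.13). Among them were LYS20, of lysine synthesis, at -0.47 and HIS1 at -0.35. In pus1del with DMSO against WT with DMSO the median of that list was -0.13 too, and that of the mitotic genes below was -0.09. Mitotic genes were called lower in 9 of 23 cases and higher in 2 (median -0.15), among them the cyclin gene CLB2 (111 and 116 CPM in pus1del with aTC, against 152 and 149 CPM in WT with DMSO) and SPO12, of mitotic exit (-0.62). SPO12 lost its call without pus1del with aTC replicate 1 or WT with DMSO replicate 2. Splicing genes were called lower in 5 of 24 cases, led by the Sm protein gene SMB1 (-0.57), whose call ended without pus1del with aTC replicate 1. Haploid-specific genes, listed as held down in a MATa/alpha diploid, were called higher in 5 of 25 cases, with STE5 at 0.49 and STE4 at 0.50. The list median was 0.22, and 0.14 in pus1del with DMSO against WT with DMSO. Summed over the list, haploid-specific genes came to 375.6 and 366.5 CPM in pus1del with aTC, against 341 and 322.7 CPM in WT with DMSO. STE4, BAR1 (0.37) and AGA1 (0.32) lost the call in 3 to 8 settings.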

How the data were processed

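The deposited values are raw counts of reads per gene, made by the authors with featureCounts 2.0.1 on uniquely aligned reads, per the file headers. The command in the headers counts exon reads by transcript identifier and sets neither a strand nor an overlap option, so genes that overlap another listed gene (1464 of 6663, 22.0%) or have near-identical copies are uncertain. STAR is named as aligner in the submitters' processing notes, with no version, and libraries came from poly(A) selection and a directional kit, per the labels' protocols. The headers name no public genome build. Symbols came from the RefSeq R64 table (5931 matched, 732 not), and 0 gene starts coincide with R64, so R64 served only for symbols and promoter sequence.

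Counts were tested in R 4.3.3 with edgeR 4.0.16 (quasi-likelihood F test, TMM, default filter keeping 5932 genes and removing 731), with 1 mean per group over all 8 libraries and no block. P-values were adjusted by Benjamini-Hochberg over all tested genes, and calls are at adjusted p under 0.05. The biological coefficient of variation was 5.44% (common dispersion 0.00296). With 2 libraries a group, p-values set a difference against the spread between these cultures within groups. That spread was pooled over all 4 groups, WT with aTC included, and drawn toward that of other genes. Standard errors are the log2 fold change over the square root of F. The interaction and the promoter motifs were added after seeing the data. The fit was tested on simulated counts. Alternatives were RLE scaling, DESeq2 1.42.0, no filter, a filter of 5 CPM in 2 libraries, the 4 libraries alone, a replicate block, each library left out, both WT with aTC libraries left out (chosen after seeing the data, as were all alternatives for the other group comparisons), no overlapping genes, and a 1.5-fold threshold.

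Members, 45 gene lists and the rule for named genes were chosen with earlier results of these data known. The rule took PUS1, the other synthases, construct genes and neighbours, and the 15 largest called changes each way. Further names were at most 4 called members of each list, genes known to differ with aTC (and so with the isoform) in both strains, and the largest calls of the other comparisons. Genes outside it (YOR203W, MCR1, YOR338W, HSP12, HSP26, SSA4, SIP4, MFA1, STE3, IME1, NDT80) were named after their values were seen.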

Additional observations from a re-analysis of the deposited data

Results flagged for a closer look

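PUS1 was singled out because its response to aTC differed between the strains. It was larger in the deletion than in WT by 11.558 on the log2 scale (SE 0.201, edgeR quasi-likelihood adjusted p = 3.19e-11), where the deletion without aTC held 2 and 4 reads while WT with DMSO held 11004 and 12139. The next smallest adjusted p in that test was 0.66.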

How the results depend on the processing

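The count of 1222 genes kept within 1.5 times under RLE scaling (1193), DESeq2 (1268), no filter (1236), the 5 CPM filter (1212), only the 4 libraries (1105), no overlapping genes (1109) and both WT with aTC libraries left out (1602). A 1.5-fold threshold left 99. With the replicate block it was 1116 (534 higher, 582 lower), but same-numbered libraries of the groups deviated together by correlations of only -0.156 to 0.143, so the numbers do not pair the samples. Leaving out 1 library gave 123 to 1596 calls, 67 to 782 higher and 56 to 814 lower. For the comparison without shared libraries the range was 16 to 411, and DESeq2 gave 264 against 102. Loss of PUS1 without inducer (13 calls) gave 1 to 106 with 1 library left out, 21 with RLE, 113 with DESeq2, 29 with no filter or no overlapping genes, 28 with the block and 109 without both WT with aTC libraries, alternatives chosen after seeing the data. With 1 library left out the called members ran from 2 to 47 for large and 1 to 50 for small subunit assembly, 6 to 26 for general stress, 4 to 11 for Hsf1 chaperones, 3 to 10 for glucose-repressed genes and 5 to 7 for arginine synthesis. Each such fit had 1 library fewer, and counts went up or down depending on which library it was. The cause was not tested. Of 96 genes named, 81 were called, and 39 of these kept their call and sign in every setting that tested them. Signs turned only in uncalled genes: with 1 library left out PUS2 ran from -0.157 to 0.006, PUS5 from -0.144 to 0.212, HSP12 from -0.287 to 1.125 and SSA4 from -0.309 to 0.03. RLE moved the median of all genes by under 0.1 (0.0065 to -0.0042). Depth limits genes under about 1 CPM, whose intervals were wide.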

Other observations

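RPN4, the activator of proteasome genes, was higher in the isoform-only cultures with 75.7 and 92.3 CPM in pus1del with aTC, against 51.4 and 52.6 CPM in WT with DMSO (log2 fold change 0.69, SE 0.093, edgeR adjusted p = 0.00252), while of 35 proteasome genes 3 were called higher and 3 lower (median -0.04). Meiotic genes in these growing diploids were called higher in 3 of 28 cases, a share near the 10.3% of all tested genes, and lower in 1. IME2, a meiotic kinase gene, had 13.6 and 13 CPM in pus1del with aTC, against 9.52 and 8.86 CPM in WT with DMSO (log2 fold change 0.54, SE 0.098, edgeR adjusted p = 0.00769), a call lost without pus1del with aTC replicate 1, while the meiotic activators IME1 and NDT80 were not called (log2 0.42 and -0.10). IME1 and NDT80 were named after their values were seen.

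Of 15 genes of the purine list, 7 were called lower and 1, ADE17, higher, with ADE5,7 at -0.26, MTD1 at -0.31 and the permease gene FCY2 at -0.39. The list median was -0.18, and -0.14 in pus1del with DMSO against WT with DMSO. The nuclear respiratory chain genes were called higher in 5 of 41 cases, a share near the 10.3% of all tested genes, and lower in 1, with CYC7, the hypoxic cytochrome c isoform, at 0.63 and NDI1, the internal NADH dehydrogenase, at 0.37. Calls of CYC7, NDI1, FCY2, MTD1 and ADE5,7 ended in 1 to 3 of the fits that left out a library.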
